A study of Mus musculus with 193 samples.

Results

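The mitochondrial ribosome is built from nuclear-encoded proteins, and the genes described here are those of the mouse whose symbol begins with Mrpl (large subunit) or Mrps (small subunit) followed by a digit, without names containing -ps. The table of 19557 genes held 76 of them, 47 Mrpl and 29 Mrps. They were read in 193 single cells sorted from mouse testes for green fluorescence of an Id4-eGFP reporter, which marks germ cells that include spermatogonial stem cells. There were 69 cells of postnatal day 3 mice labelled as knockout for the homeobox gene Rhox10 (KOp3), 53 wild-type cells of postnatal day 7 (WTp7) and 71 wild-type cells of postnatal day 3 (WTp3). Every cell of all 3 groups carried the reporter label, and the labels give neither the allele nor the strain. Titles divide the cells into 7 lettered sets whose meaning is not explained: KOp3A with 21 cells, KOp3B with 12, KOp3C with 36, WTp7A with 12, WTp7B with 41, WTp3A with 16 and WTp3B with 55. No animal, litter or culture is named, so each group counts as 1 sample, no test was made, and the repeat of a difference across lettered sets is the only measure of its spread.

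Mitochondrial ribosomes translate the few proteins that the mitochondrial genome encodes, which are core subunits of the respiratory chain. Their protein-rich subunits join counterparts of bacterial ribosomal proteins with proteins found only in mitochondria, and their RNA comes from the mitochondrial genome. Spermatogonial stem cells arise from prospermatogonia in the first days after birth, and the germ cells of the testis change their mitochondria as they differentiate. Mitochondria-encoded RNAs were not analysed here.

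Values are in RPM, the reads of a gene scaled to a fixed total of all reads of the cell. A level is the mean over cells of log2(RPM + 1), taken per lettered set and then averaged over the sets of a group with equal weight. A difference is one group's level minus the other's, followed by its range when single sets are set against each other, 6 pairs for KOp3 against WTp3 and 4 for WTp7 against WTp3. A member counted as measured with a mean level of at least 2 over both groups, and as past the fold with a difference of at least 0.5 in size and 1 sign in all pairs of sets. Both comparisons use the same WTp3 cells.

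Promoter windows of 300 bases from RefSeq (GRCm38.p6) were found for 67 of the 76 members. Motifs of 3 factors known to act on genes for mitochondrial proteins were searched on both strands, and the motifs and the windows shown were chosen after the values were known. The NRF1 motif GCATGCGC was in the windows of 8 members (11.9%), against 3.05% of 27025 genes. The ETS motif CCGGAAGT, bound by GABP, was in those of 12 members (17.9%), against 4.31% of all genes. The YY1 motif AAGATGGC was also in those of 12 members (17.9%), against 3.19% of all genes. A match is a description of these letters and not a bound site. The windows below belong to the 3 Mrps18 genes, a family of related proteins, and to Mrps22 and Mrpl2, a pair that was higher at day 7. They are written 5′ to 3′ on the gene's strand, with motif matches in capitals on either strand, and the first of the Mrpl2 windows is given.
Mrps18a (chr17:46110754-46111053, plus strand): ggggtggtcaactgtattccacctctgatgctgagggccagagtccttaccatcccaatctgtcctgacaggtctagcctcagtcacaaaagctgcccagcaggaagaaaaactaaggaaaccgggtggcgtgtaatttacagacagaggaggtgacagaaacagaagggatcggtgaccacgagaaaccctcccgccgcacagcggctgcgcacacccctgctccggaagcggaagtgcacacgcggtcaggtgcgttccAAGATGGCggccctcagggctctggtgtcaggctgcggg
Mrps18b (chr17:35916391-35916690, minus strand): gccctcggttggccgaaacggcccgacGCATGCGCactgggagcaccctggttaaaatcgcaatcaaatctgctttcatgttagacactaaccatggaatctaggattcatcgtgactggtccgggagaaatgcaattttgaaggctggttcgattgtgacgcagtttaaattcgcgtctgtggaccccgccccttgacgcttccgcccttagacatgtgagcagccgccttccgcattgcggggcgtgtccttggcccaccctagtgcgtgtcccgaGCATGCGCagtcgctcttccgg
Mrps18c (chr5:100798509-100798808, plus strand): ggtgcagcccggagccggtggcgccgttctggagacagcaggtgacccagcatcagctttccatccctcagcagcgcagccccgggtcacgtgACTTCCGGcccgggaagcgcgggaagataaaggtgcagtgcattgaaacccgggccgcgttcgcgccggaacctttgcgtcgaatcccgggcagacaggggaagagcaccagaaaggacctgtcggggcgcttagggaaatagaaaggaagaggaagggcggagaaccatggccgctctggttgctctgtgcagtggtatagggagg
Mrps22 (chr9:98601630-98601929, minus strand): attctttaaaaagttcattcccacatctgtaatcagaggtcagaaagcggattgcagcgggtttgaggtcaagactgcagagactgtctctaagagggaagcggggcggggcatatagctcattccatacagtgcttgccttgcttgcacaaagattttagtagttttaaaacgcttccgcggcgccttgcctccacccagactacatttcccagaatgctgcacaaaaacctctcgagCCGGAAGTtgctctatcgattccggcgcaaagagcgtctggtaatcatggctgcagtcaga
Mrpl2 (chr17:46645971-46646270, plus strand): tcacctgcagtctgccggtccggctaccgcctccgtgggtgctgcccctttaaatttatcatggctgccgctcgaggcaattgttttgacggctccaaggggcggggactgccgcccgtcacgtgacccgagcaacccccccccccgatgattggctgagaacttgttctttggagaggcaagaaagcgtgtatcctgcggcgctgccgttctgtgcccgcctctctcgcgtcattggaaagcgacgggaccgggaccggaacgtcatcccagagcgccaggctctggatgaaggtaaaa
The Mrps18a window holds 1 YY1 match, the Mrps18b window 2 NRF1 matches, and the Mrps18c and Mrps22 windows 1 ETS match each. That of Mrpl2 holds none of the 3 motifs in these letters.

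The members were read in nearly every cell. At least 1 read of a member was found in between 57.0% (Mrps36) and 100% of the 193 cells, with a median over members of 96.4%, and 62 members were found in over 90% of cells. A cell held reads of 59 to 76 members in KOp3 (median 72), of 51 to 75 in WTp7 (median 72) and of 42 to 76 in WTp3 (median 74). Total reads per cell ran from 251530 to 10663507 and reads on genes from 25424 to 1373776, so that single cells with few reads give coarse values for the low members. Reads on genes had a median of 139300 RPM in KOp3, 150320 RPM in WTp7 and 105930 RPM in WTp3. Because these totals differ between the groups, group results are also given with each cell scaled to its reads on genes (called the gene-read scale). The summed levels of 6 germ cell markers had medians of 1268 RPM in KOp3, 1060 RPM in WTp7 and 949 RPM in WTp3, and 1 KOp3A cell had only 15.3 RPM. The KOp3 sets differed in this sum, and the KOp3A median of 830 RPM was below those of both WTp3 sets. Rhox10 itself was not lower in every set labelled KO: its level was 2.48 in KOp3A, 2.62 in KOp3B and 0.83 in KOp3C, against 1.78 in WTp3A and 1.49 in WTp3B.

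Summed over the 76 members, the median per cell was higher in WTp7 than in WTp3, in RPM and as a share of reads on genes. The KOp3 median stood above that of WTp3 in RPM and below it as a share. Both scales are relative to a cell's reads and give no amount of RNA per cell. The sum per cell ran from 385 to 1189 RPM in KOp3 (median 821), from 665 to 1563 RPM in WTp7 (median 1077) and from 338 to 1340 RPM in WTp3 (median 715). The ranges overlapped, and both WTp7 sets had higher medians (1089 RPM in WTp7A and 1077 RPM in WTp7B) than both WTp3 sets (789 RPM in WTp3A and 682 RPM in WTp3B). The KOp3 sets did not hold together, with medians of 728 RPM in KOp3A, 852 RPM in KOp3B and 900 RPM in KOp3C.

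As a share of reads on genes, the members took a median of 0.604% per cell in KOp3, 0.704% in WTp7 and 0.634% in WTp3. All reads of a group pooled gave 0.606% in KOp3 (exact 95% interval 0.604% to 0.608%), 0.710% in WTp7 (0.706% to 0.713%) and 0.641% in WTp3 (0.638% to 0.643%), where the intervals cover counting error only. On this scale the sets of different groups interleaved: the median was 0.659% in WTp7A and 0.728% in WTp7B, against 0.686% in WTp3A and 0.618% in WTp3B. WTp7A was thus below WTp3A. The 3 KOp3 sets had medians of 0.570%, 0.591% and 0.623%, and the highest of these, that of KOp3C, was above WTp3B.

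**Figure D1:**
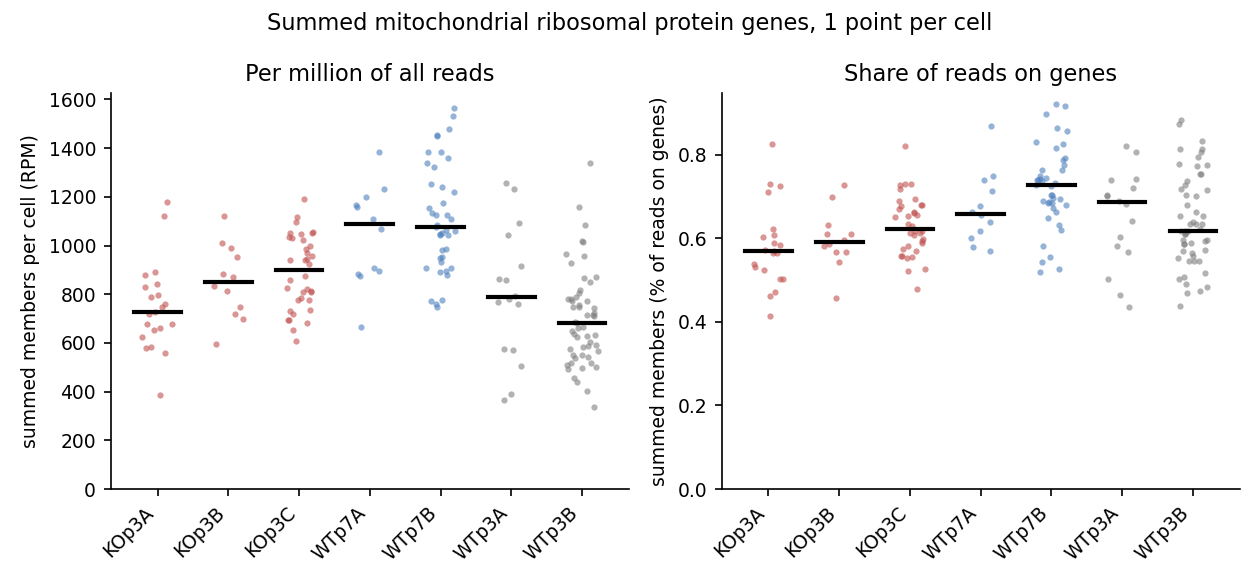
Summed level of the 76 members in each of 193 cells, by lettered set, in RPM (left) and as a percentage of reads on genes (right), with 1 point per cell and a bar at the median of the set. In RPM the WTp7 medians of 1089 and 1077 stand above all others, while as a share of reads on genes WTp7A (0.659%) lies below WTp3A (0.686%).

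Per kilobase of transcript, large-subunit members had a higher median level than small-subunit members, with 8.13 and 4.31 RPM per kb over all sets. Lengths were those of the principal transcript in GENCODE M21. Mrpl42, a mitochondria-specific large-subunit protein, was highest with 40.8 RPM per kb, followed by Mrpl28 with 26.8, Mrpl20 with 26.1 and Mrpl44 with 23.9 RPM per kb. Among members measured in both comparisons, the lowest were Mrps26 with 1.29, Mrpl48 with 1.32, Mrps5 with 1.53 and Mrps25 with 1.88 RPM per kb. These low members had long annotated transcripts, of 4278, 4285, 4481 and 6073 bases in the same order. Below the level limit stood Mrps36, now known as a subunit of the oxoglutarate dehydrogenase complex and not of the ribosome, with 0.62 RPM per kb, and Mrps30, a large-subunit protein by structure despite its name, with 0.75 RPM per kb. In all, 13 members were measured in neither comparison. Of the 76, 27 share exon bases with other genes, 21 of them over 10%, and 5 of them (Mrpl33, Mrpl51, Mrpl53, Mrps18c and Mrps6) share bases with a gene on the same strand. Reads from shared bases could not be told apart here, whichever strand the other gene is on. Bases were added up over the other genes, so a share is an upper limit for members that overlap several genes. Among members named for a difference or a gap these shares were 75.6% for Mrps25, 27.3% for Mrps18c, 22.6% for Mrps27, 15.2% for Mrpl12, 14.1% for Mrpl10, 11.6% for Mrpl18 and 8.85% for Mrpl44, beside others given with their values.

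The balance of both subunits differed between the groups by less than it did between the sets of KOp3 or of WTp7. Summed RPM of large-subunit members divided by that of small-subunit members had a median per cell of 2.14 in KOp3, 2.33 in WTp7 and 2.27 in WTp3. By set the medians ran from 1.94 in KOp3A to 2.21 in KOp3B for KOp3, were 2.01 and 2.34 in WTp7A and WTp7B, and were 2.14 and 2.29 in WTp3A and WTp3B. Within sets, the summed RPM of large- and small-subunit members rose together, with Pearson's r of their log2 sums between 0.40 (WTp7A, 12 cells) and 0.85 (WTp3B, 55 cells). Both sums share the cell's total, and as shares of reads on genes r ran from -0.11 in WTp7A to 0.66 in WTp3B.

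At day 7, 46 of 61 measured members were higher than at day 3 in RPM by any amount, as were 3245 of 4895 genes. The large subunit had more members past the fold than the small one. Of 61 measured members, 23 (37.7%) were higher in WTp7 and past the fold, beside 30.9% of all 4895 measured genes. Only Mrpl13 was lower and past the fold, beside 8.19% of all genes. The median difference was 0.38 (0.19 to 0.51 over pairs), against 0.25 for all genes, and 36 of 61 members lay above the median of all genes. Some markers of other testis cells were lower at day 7. The 8 Sertoli cell markers summed to between 0 and 9.47 RPM per cell in WTp7 (median 0, with all 8 at 0 in WTp7A), against 0 to 696 RPM in WTp3 (median 1.83). Of these 8 markers, none of which reached the level limit, 4 (Clu, Wt1, Sox9 and Vim) were lower by at least 0.5 with 1 sign in all pairs, as did 2 of 5 endothelial markers, Pecam1 and Kdr. Endothelial sums ran from 0 to 87.2 RPM in WTp7 (median 0), against 0 to 19.5 RPM in WTp3 (median 1.53). Without the 5 WTp3B cells above 100 RPM of Sertoli markers, 23 of 60 members were higher and 1 lower, beside 31.2% and 8.16% of all genes. The median was 0.40, against 0.25 for all genes, and the part of the markers in the remaining cells was not tested.

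By subunit, 18 of 40 large-subunit members were higher past the fold and 1 was lower, with a median of 0.44, and 5 of 21 small-subunit members were higher, with a median of 0.33. The large median exceeded the small one by 0.11, with a range over pairs of 0.03 to 0.23, and it was positive in every alternative run (0.028 to 0.22). Within the small subunit, 4 of 8 measured mitochondria-specific proteins were higher past the fold (median 0.57), against 1 of 12 with a bacterial counterpart (median 0.26). In the large subunit, 7 of 16 mitochondria-specific proteins (median 0.30) and 11 of 25 with a bacterial counterpart (median 0.45) were higher, where subunits are assigned by structure. All counts of this paragraph stand beside 30.9% of all genes higher and 8.19% lower past the fold, and the classes by origin are small.

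The difference between ages was smaller on the gene-read scale. With cells scaled to their reads on genes, the median of all genes was lower by 0.12 in WTp7 than in WTp3, and that of the members differed by 0.01. Past the fold, 6 of 62 measured members were higher, beside 12.2% of all 4929 genes, and 8 were lower, beside 21.3% of all genes. Relative to all genes the members stood higher by 0.14 in RPM and by 0.13 on the gene-read scale. On the gene-read scale 3 of 40 large-subunit members were higher and 6 lower, and of 22 small-subunit members 3 were higher and 2 lower. Relative to reads of the ERCC spike-ins, the median of the members was 0.40, against 0.27 for all genes.

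**Figure D2:**
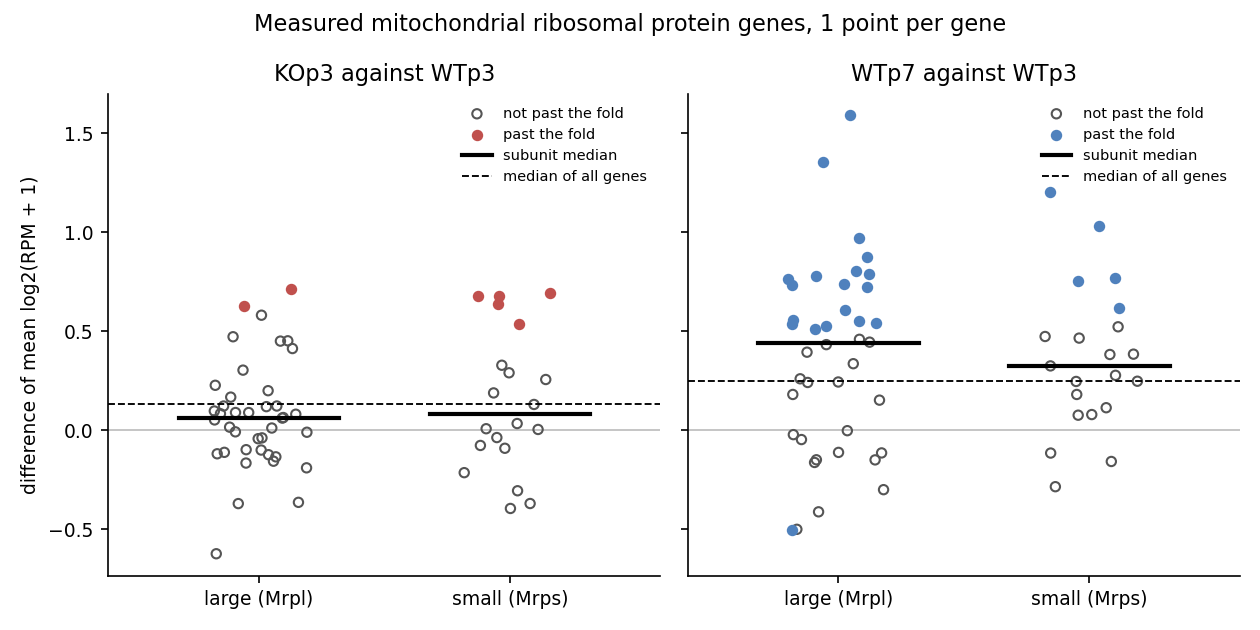
Difference of mean log2(RPM + 1) from WTp3 for each measured member, KOp3 on the left and WTp7 on the right, by subunit, with filled points past the fold, a bar at the subunit's median and a dashed line at the median of all genes. At day 7 the medians were 0.44 for the large and 0.33 for the small subunit, against 0.25 for all genes, and in KOp3 both subunits (0.06 and 0.08) lay below all genes (0.13).

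Mrpl2 showed the largest difference at day 7. It is the counterpart of a bacterial protein at the heart of the large subunit, next to the peptidyl transferase centre, and lies at chr17:46646229-46650139 (GRCm38, plus strand). Its value per cell ran from 0 to 86.6 RPM in WTp7 (median 24.1), against 0 to 24.1 RPM in WTp3 (median 8.23). Cells of the 2 ages overlapped, but the median WTp7 cell was at the level of the highest WTp3 cell. Levels were 4.51 in WTp7A and 4.62 in WTp7B, against 2.79 in WTp3A and 3.16 in WTp3B, a difference of 1.59 (1.35 to 1.83). The gene-read scale gave 1.21 (0.88 to 1.53).

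Mrpl4, whose bacterial counterpart lines the tunnel through which the new chain leaves the ribosome, lies at chr9:21002738-21008839 (plus strand). It had 1.98 to 67.2 RPM in WTp7 cells (median 23.1), against 0.71 to 34.7 RPM in WTp3 cells (median 8.28). Both WTp7 sets (levels 4.53 and 4.30) were above both WTp3 sets (3.02 and 3.10), while single cells overlapped. The difference was 1.36 (1.20 to 1.52), and 0.97 (0.74 to 1.20) on the gene-read scale. In KOp3 cells Mrpl4 had a median of 7.03 RPM, with levels of 2.20, 2.89 and 3.00 in the 3 sets.

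Mrps22, a small-subunit protein found only in mitochondrial ribosomes, lies at chr9:98588730-98601660 (minus strand). Its values were 0 to 118 RPM in WTp7 cells (median 24.1), against 0 to 32.7 RPM in WTp3 cells (median 12.1). The WTp7 sets had levels of 4.89 and 4.29 and the WTp3 sets 3.49 and 3.63, so the sets did not overlap although the cells did. It differed by 1.03 (0.66 to 1.40), and by 0.63 (0.22 to 1.04) on the gene-read scale.

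Mrpl2, Mrpl4, Mrps22 and Mrps18b, which is described with its paralogs below, were the 4 members with a difference of at least 1. They stayed past the fold in all 16 alternatives for this comparison, with differences of 0.61 to 1.83. Markers of the G2/M phase split the WTp7 sets: their mean level was 2.64 in WTp7A and 4.94 in WTp7B, against 3.24 in WTp3A and 3.88 in WTp3B. The part of these markers in the members' levels was not tested.

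**Figure D3:**
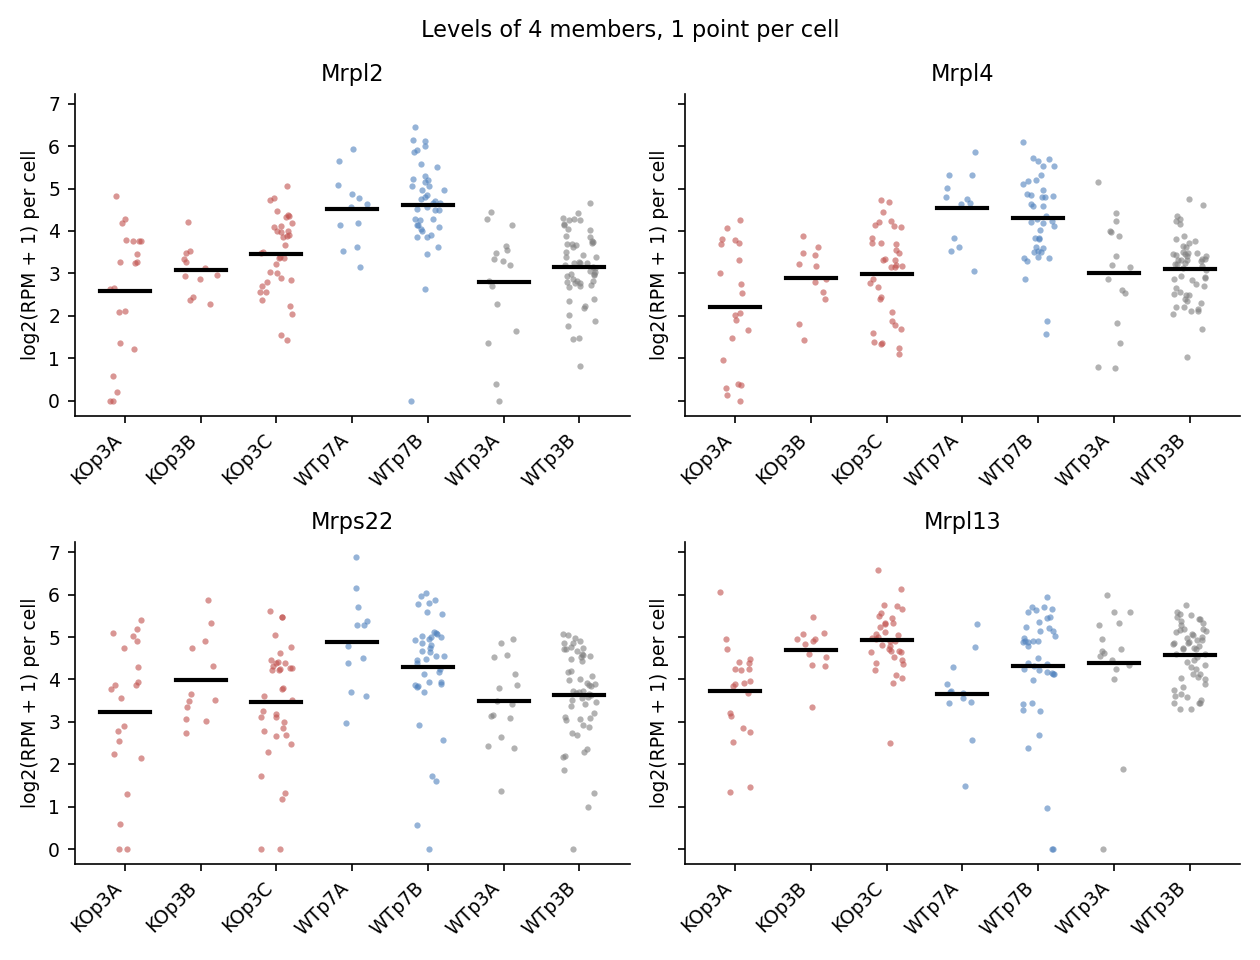
Level of Mrpl2, Mrpl4, Mrps22 and Mrpl13 in each cell as log2(RPM + 1), by lettered set, with a bar at the mean of the set. For Mrpl2 the WTp7 sets stand at 4.51 and 4.62, above 2.79 and 3.16 in the WTp3 sets, while for Mrpl13 they stand at 3.66 and 4.31, below 4.39 and 4.59.

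The other members that led at day 7 were Mrpl47 (0.97, 0.44 to 1.50), Mrpl28 (0.88, 0.47 to 1.28), Mrpl16 (0.80, 0.72 to 0.89), Mrpl15 (0.79, 0.64 to 0.94), Mrpl38 (0.78, 0.60 to 0.96) and Mrps26 (0.77, 0.57 to 0.97). Mrpl47, Mrpl28, Mrpl16 and Mrpl15 are counterparts of bacterial large-subunit proteins, and Mrpl38 and Mrps26 are mitochondria-specific. Mrpl16 and Mrpl15 had the narrowest ranges over pairs of these 6. Of 16 alternatives, Mrpl47 and Mrps26 stayed past the fold in 13, Mrpl28 and Mrpl16 in 12, and Mrpl15 and Mrpl38 in 11. Mrpl47 (0.62) and Mrps26 (0.52) were also past the fold on the gene-read scale, and the other 4 had differences of 0.39 to 0.46.

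Of 61 measured members, 15 went the other way in RPM by any amount. Mrpl13, a counterpart of a bacterial large-subunit protein at chr15:55534094-55557748 (minus strand), had 0 to 60.8 RPM in WTp7 cells (median 18.9), against 0 to 62.8 RPM in WTp3 cells (median 25.4). The cells of both ages covered the same range, and WTp7B (level 4.31) was close to WTp3A (4.39). Its difference was -0.51 (-0.93 to -0.08). It stayed past the fold in 9 of 16 alternatives, over which its difference ran from -1.07 to -0.18. It shares 26.98% of its exon bases with Mtbp on the opposite strand. Reads from these bases could not be told apart here, and the authors' strand setting is not given in the sources used.

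Mrpl18 (-0.50, -1.13 to 0.14), Mrpl20 (-0.41, -0.67 to -0.15) and Mrpl1 (-0.30, -0.50 to -0.10) were the next lowest and were not past the fold in RPM. All of them are counterparts of bacterial large-subunit proteins, Mrpl1 that of the protein at the mobile stalk where spent tRNA leaves. On the gene-read scale Mrpl13 (-0.90), Mrpl18 (-0.89), Mrpl20 (-0.83) and Mrpl1 (-0.67) were past the fold. The direction for Mrpl1 depended on the summary: with the log of the mean RPM over cells its difference was 0.17.

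**Figure D4:**
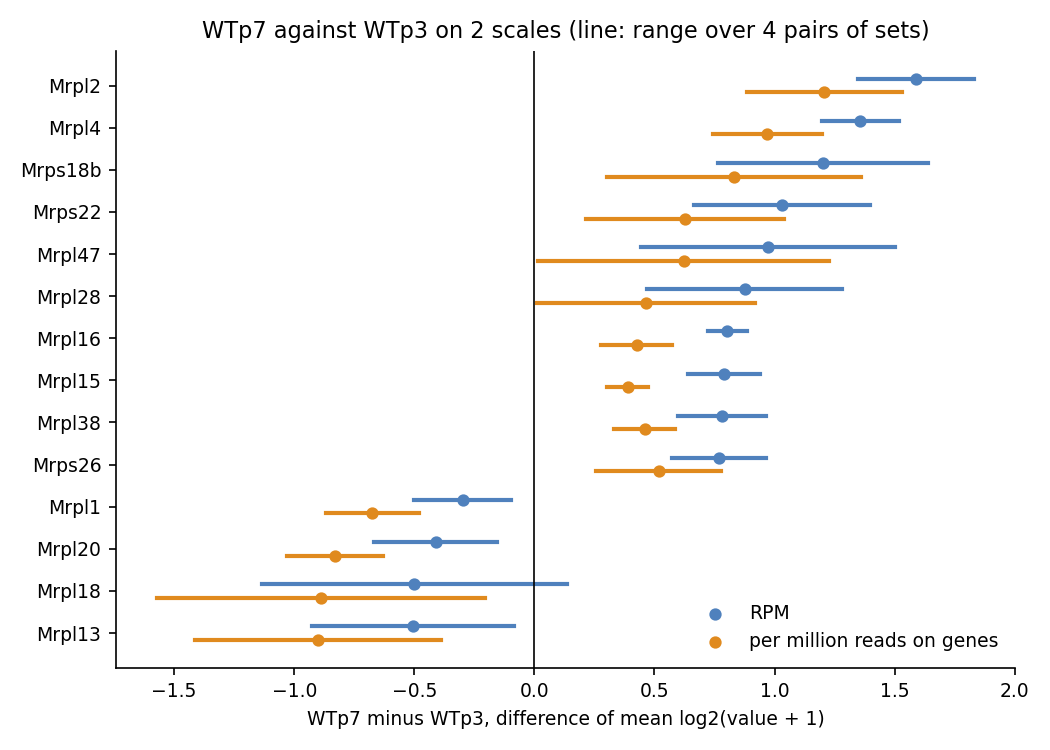
Difference between WTp7 and WTp3 for the 10 highest and 4 lowest members, in RPM and on the gene-read scale, with points at the difference and lines over the range of the 4 pairs of sets. The second scale moved every member shown to the left, Mrpl2 to 1.21 and Mrpl13 to -0.90.

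In KOp3 cells the members as a list differed little from WTp3 cells. Of 60 measured members, 7 (11.7%) were higher and past the fold, beside 10.9% of all 4899 measured genes, and none was lower, beside 2.82% of all genes. The median difference was 0.06, against 0.13 for all genes, and 20 of 60 members were above the median of all genes. Its sign depended on the set: the median of the members was -0.25 and -0.29 in the pairs with KOp3A, 0.24 and 0.22 in those with KOp3B, and 0.19 and 0.24 in those with KOp3C. On the gene-read scale the median was -0.15, against -0.10 for all genes, with 1 of 62 members higher past the fold, beside 3.75% of all genes, and 3 lower, beside 9.05% of all genes.

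KOp3A stood apart in other ways too. Its mean level of G2/M markers was 1.59, against 3.88 in KOp3B, 4.32 in KOp3C, 3.24 in WTp3A and 3.88 in WTp3B. The sum of 8 Sertoli cell markers reached 2062 RPM in 1 KOp3A cell, with a set median of 22.8 RPM, against medians of 12.0 RPM in WTp3A and 1.44 RPM in WTp3B. Its median sum of germ cell markers was the lowest of the day 3 sets, at 830 RPM. The others had 1242.5 RPM in KOp3B, 1520 RPM in KOp3C, 951 RPM in WTp3A and 949 RPM in WTp3B. Median sums of myoid or stromal markers and of endothelial markers were highest in KOp3A among the day 3 sets. The part of these differences in the members' levels was not tested. Without KOp3A the median difference was 0.28, against 0.31 for all genes, with 11 of 61 members higher past the fold, beside 28% of all 5024 genes, and none lower, beside 2.71% of all genes. Without the 8 cells above 100 RPM of Sertoli markers, 3 from KOp3A and 5 from WTp3B, the median was 0.07, against 0.13 for all genes. Then 7 of 60 members were higher, beside 11.2% of all genes.

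The 7 higher members came from both subunits, 2 of 40 in the large and 5 of 20 in the small, beside 10.9% of all genes. The subunit medians were alike, 0.06 for the large and 0.08 for the small, and the large median minus the small one was -0.02 with a range over pairs of -0.27 to 0.10. With subunits assigned by structure that difference was 0.03, and 3 of 41 large and 4 of 19 small members were higher. On the gene-read scale, with subunits by symbol, 1 of 41 large and 0 of 21 small members were higher, beside 3.75% of all genes.

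Mrps35, a small-subunit protein specific to mitochondria, had the narrowest range of the 7 members higher in RPM. Its values ran from 0 to 37.6 RPM in KOp3 cells (median 7.79), against 0 to 15.3 RPM in WTp3 cells (median 3.77). All 3 KOp3 sets (levels 2.71, 2.99 and 2.85) were above both WTp3 sets (2.21 and 2.14), and the cells overlapped. The difference was 0.68 (0.51 to 0.85), and 0.48 (0.42 to 0.58) on the gene-read scale. In WTp7 cells Mrps35 had a median of 6.35 RPM and a difference of 0.75 (0.50 to 1.01) from WTp3.

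Mrpl47 (0.71, 0.00 to 1.54), Mrps9 (0.69, 0.15 to 1.12), Mrps18a (0.68, 0.03 to 1.13), Mrps26 (0.64, 0.22 to 1.17), Mrpl44 (0.63, 0.35 to 0.91) and Mrps6 (0.54, 0.32 to 0.72) were the others. Mrps9 and Mrps6 are counterparts of bacterial small-subunit proteins, and Mrpl44 is a large-subunit protein with a ribonuclease-like fold. Mrps6 shares up to 54.8% of its exon bases with other genes, and Mrpl47 up to 18.1%. Of 17 alternatives for this comparison, Mrps35 stayed past the fold in 14, and Mrps18a and Mrps26 in 11. Mrps9 did so in 10, Mrpl44 and Mrps6 in 9, and Mrpl47 in 7. None of the 7 was past the fold on the gene-read scale, where they differed by 0.32 to 0.497. Mrpl10 was the single member higher on that scale, with 0.54 (0.32 to 0.74), and was below the level limit in RPM.

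At the low end in KOp3 were Mrpl18 (-0.62, -1.80 to 0.17), Mrps27 (-0.39, -1.30 to 0.22), Mrpl22 (-0.37, -0.59 to -0.19) and Mrps25 (-0.37, -0.99 to 0.30). Mrps27 is an RNA-binding protein of the pentatricopeptide repeat family, and the bacterial counterpart of Mrpl22 lines the exit tunnel. Only Mrpl22 among these 4 was lower in all 6 pairs, with levels of 2.00, 2.27 and 2.40 in the KOp3 sets, against 2.59 and 2.60 in the WTp3 sets. Scaled to reads on genes, Mrpl18 (-0.89), Mrpl4 (-0.60) and Mrpl22 (-0.59) were lower and past the fold.

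Sets of 1 group could differ more than the groups did. The largest gaps were those of Mrps2 (2.25), Mrpl12 (2.00) and Mrpl18 (1.68), each between KOp3A and another KOp3 set. Mrps2, a counterpart of a bacterial small-subunit protein, had levels of 1.31 in KOp3A, 2.46 in KOp3B and 3.55 in KOp3C, against 2.42 and 1.80 in the WTp3 sets. Mrpl12, which binds the mitochondrial RNA polymerase besides its place on the large subunit, had 1.57, 3.00 and 3.56 in the KOp3 sets, against 2.66 and 3.02 in the WTp3 sets. For Mrpl18 the levels were 2.42, 4.09 and 3.83, against 3.92 and 4.22. In all of these KOp3A was the lowest of the 5 day 3 sets.

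The 3 Mrps18 genes encode related proteins that occupy different places: Mrps18c takes that of the bacterial counterpart in the small subunit, Mrps18b sits elsewhere in the small subunit, and Mrps18a is in the large subunit despite its name. Mrps18b (chr17:35910379-35916389, minus strand) had 0 to 35.3 RPM in KOp3 cells (median 6.65), 0 to 59.2 RPM in WTp7 cells (median 14.9) and 0 to 25.6 RPM in WTp3 cells (median 5.88). It was higher at day 7 by 1.20 (0.77 to 1.64), or 0.83 (0.30 to 1.36) on the gene-read scale, and differed in KOp3 by 0.26 (-0.49 to 1.03). Its exons share 59.1% of their bases with an antisense gene, Gm16279.

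Mrps18a (chr17:46110986-46128910, plus strand) had 0 to 40.9 RPM in KOp3 cells (median 6.64), 0 to 19.1 RPM in WTp7 cells (median 3.72) and 0 to 32.2 RPM in WTp3 cells (median 3.49). It had at least 1 read in 97.1% of KOp3 cells, 79.2% of WTp7 cells (exact 95% interval 65.9% to 89.2%) and 98.6% of WTp3 cells (92.4% to 99.96%), with medians of 4552353, 3299782 and 4425188 total reads per cell in the same order. The intervals cover counting error over the cells of 1 sample a group and do not bear on a difference between groups. Its level in KOp3 was higher than in WTp3 by 0.68 (0.03 to 1.13), and in WTp7 it differed from WTp3 by -0.28 (-0.45 to -0.11). On the gene-read scale these differences were 0.49 (-0.11 to 0.83) and -0.57 (-0.67 to -0.46).

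Mrps18c (chr5:100798627-100804471, plus strand) had 0.575 to 33.1 RPM in KOp3 cells (median 12.8), 0 to 25.8 RPM in WTp7 cells (median 11.7) and 0 to 40.997 RPM in WTp3 cells (median 10.5). It differed by 0.19 (-0.11 to 0.56) in KOp3 and by -0.16 (-0.54 to 0.23) at day 7, in neither case with 1 sign over all pairs. On the gene-read scale it differed at day 7 by -0.52 (-0.84 to -0.19), past the fold. The day 7 range over pairs of Mrps18b lay above those of both paralogs on either scale, and in KOp3 Mrps18a alone of the 3 was past the fold in RPM.

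**Figure D5:**
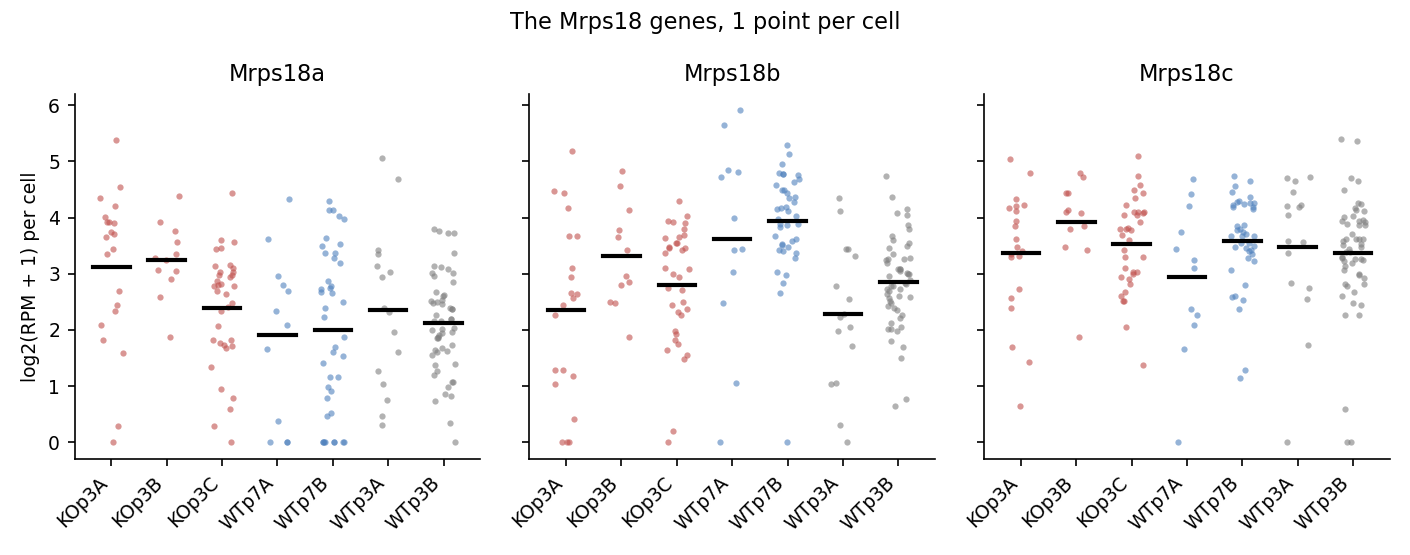
Level of Mrps18a, Mrps18b and Mrps18c in each cell as log2(RPM + 1), by lettered set, with a bar at the mean of the set. Mrps18b stands at 3.61 and 3.93 in the WTp7 sets, above 2.29 and 2.85 in the WTp3 sets, and Mrps18a at 3.11, 3.25 and 2.39 in the KOp3 sets, above 2.36 and 2.12 in the WTp3 sets.

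Other proteins of the mitoribosome and of mitochondrial translation were read beside the members. Of 5 measured mitoribosomal proteins with other names, 3 were higher and past the fold at day 7 (median 0.78), and this count and those of the lists that follow stand beside 30.9% of all genes higher at day 7 and 10.9% in KOp3. Aurkaip1 (1.13, 1.07 to 1.19) and Dap3 (1.00, 0.50 to 1.50), both of the small subunit, led, and Ptcd3 (-0.48, -1.13 to 0.16) was lowest. In KOp3, 1 of the 5 was higher, Dap3 with 0.90 (0.14 to 1.51), and Ptcd3 had -0.61 (-1.62 to 0.04). Mrp63, a large-subunit gene whose symbol falls outside the rule, differed by 0.27 (-0.18 to 0.73) in KOp3 and by 0.81 (0.55 to 1.08) at day 7.

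Among mitochondrial tRNA synthetases and related enzymes, 6 of 8 measured were higher and past the fold at day 7, with a median of 0.89. Among these was Rars2 (1.29, 0.98 to 1.59), which charges the tRNA for arginine. In KOp3, 0 of 7 were past the fold in either direction (median 0.07), and Iars2 had -0.53 (-1.41 to 0.44). Of 7 measured assembly factors 3 were higher at day 7 (median 0.29), with Rbfa (1.52, 1.28 to 1.77), which matures the small subunit, and Gtpbp10 (1.18, 0.80 to 1.56), a GTPase for the large subunit, first. In KOp3, 1 of 6 was higher, Grsf1 (0.59, 0.13 to 1.23), an RNA-binding protein of mitochondrial RNA granules.

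Of 8 measured translation factors, 3 were higher at day 7 (median 0.47), led by Oxa1l (1.18, 0.66 to 1.69), which inserts new chains into the inner membrane, and the initiation factor Mtif3 (0.95, 0.65 to 1.26). In KOp3, 2 of 8 were higher, the recycling factors Gfm2 (0.89, 0.18 to 1.54) and Mrrf (0.56, 0.21 to 0.79). Genes for maintenance and transcription of mitochondrial DNA were also read: at day 7 none of 5 was higher and Mterf3, listed as Mterfd1, was lower (-0.55, -0.89 to -0.22). In KOp3, Tfam, which packages mitochondrial DNA, was higher by 0.66 (0.28 to 1.00), and the other 4 were not past the fold. Among regulators, the coactivator gene Pprc1 was higher at day 7 by 1.14 (1.10 to 1.17), and Gabpb1, which encodes a partner of the ETS factor GABP, was higher in KOp3 by 0.77 (0.08 to 1.59). In each comparison 4 regulators were measured, and the other 3 were not past the fold.

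A pair of like families were set beside the members. Cytosolic ribosomal protein genes were higher at day 7 in 28 of 51 measured, with 2 lower and a median of 0.58, and in KOp3 6 of 49 were higher, with a median of 0.18. Nuclear genes of the respiratory chain were higher at day 7 in 29 of 69 (median 0.42), and in KOp3 in 8 of 68 (median 0.02). The members had medians of 0.38 and 0.06 in these comparisons. Within sets, the log2 sums of the members and of the respiratory chain genes per cell had r between 0.39 (WTp7A, 12 cells) and 0.97 (WTp3A, 16 cells), sums that share each cell's total. As shares of reads on genes, r ran from -0.40 in WTp7A to 0.92 in WTp3A.

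These lists, too, depended on the scale. On the gene-read scale at day 7, 3 of 8 tRNA synthetases were higher and 1 lower (median 0.48), as were 2 and 1 of 5 mitoribosomal proteins with other names (0.40) and 2 and 1 of 8 translation factors (0.19). The 3 assembly factors higher in RPM were higher there too, while the median of that list was -0.09. Cytosolic ribosomal protein genes then had 12 higher and 5 lower (0.17), and respiratory chain genes 7 higher and 9 lower (0.01), of 51 and 69 measured. All of these stand beside 12.2% of all genes higher and 21.3% lower on that scale. In KOp3 the medians were -0.06 for cytosolic ribosomal protein genes, with 0 higher and 2 lower, -0.24 for respiratory chain genes, with 1 higher and 7 lower, -0.20 for tRNA synthetases, with 0 higher and 1 lower, and -0.16 for the 5 mitoribosomal proteins with other names, with 0 higher and 2 lower. The shares of all genes were 3.75% higher and 9.05% lower. Dap3, Grsf1, Gfm2, Mrrf, Tfam and Gabpb1 were not past the fold in KOp3 on that scale, and Pprc1 still was at day 7. Relative to ERCC reads the day 7 medians were 0.87 for tRNA synthetases, 0.57 for cytosolic ribosomal protein genes and 0.40 for respiratory chain genes. They were 0.78 for mitoribosomal proteins with other names, 0.49 for translation factors and 0.34 for assembly factors, against 0.27 for all genes.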

How the data were processed

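Single-cell cDNA was made on a Fluidigm C1 with SMARTer chemistry and ERCC spike-ins, and libraries with Nextera XT, per the labels' protocols. STAR 2.3.0, HTSeq 0.6.1 and the mm10 build are listed in the submitters' processing notes, with no roles and no strand setting. The deposited values, named TPM, are RPM: within a tolerance of 0.001 RPM, 99.9989% were whole multiples of 1 step per cell (lowest cell 99.9796%), with no length term. The planned measures, which had assumed TPM, were applied to RPM. Of 19642 rows, 84 ERCC rows and Rn45s were left out. All columns matched 1 cell each.

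The pseudocount was 1. With 1 sample per group no count test was run on the recovered reads, although they are whole. The code that makes the calls was run on simulated data. Members and lists were chosen with earlier results of these data known. Named members are, per comparison, those past the fold (up to 10 a direction, or the 4 furthest), the extremes per kilobase and between sets, and the Mrps18 genes; Mrpl10 and Mrp63 were added after their values were seen. Levels per kilobase used the best APPRIS principal transcript, adopted after exon unions proved to include retained introns. In other lists up to 2 a direction are named, and 1 gene that this rule names is not reported here. Analyses used Python 3.11.15, pandas 2.3.3 and numpy 2.4.6; alternatives are in the closing section.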

Additional observations from a re-analysis of the deposited data

How the results depend on the processing

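No paired analysis was possible because the results come from no test. Each result was recomputed under 13 alternatives and with each of the 7 lettered sets left out in turn; leaving out cells with Sertoli markers was added after seeing the data and left the numbers of members higher and lower as they were, with 60 members measured at day 7 in place of 61. The share of all genes higher past the fold moved with the settings too, between 1.225% and 28% in KOp3 and between 9.21% and 43.1% at day 7. The share lower ran from 0.49% to 10.05% in KOp3 and from 1.86% to 22.2% at day 7. In KOp3 against WTp3, 7 members were higher and none lower. With a pseudocount of 10, 0 were higher, beside 3% of all genes. With a level of at least 4, 2 of 11 were higher, beside 11.6%, and the large median minus the small one was -0.29. With a difference of at least 1, 0 were higher, beside 1.225%. With a pseudocount of 0.1, 1 was lower, beside 4.2% of all genes. Counts higher and lower were 1 and 3 on the gene-read scale and 3 and 3 with size factors. With cells thinned to 100000 reads on genes they were 1 and 6 (median -0.25). In the same order the shares of all genes were 3.75% and 9.05%, 5.42% and 7.37%, and 3.89% and 10.05%. Relative to ERCC reads 4 members were higher, beside 5.98% of all genes. Leaving out single sets gave 6 to 11 higher and 0 to 3 lower, beside 9.96% to 28% of all genes higher and 2.71% to 7.71% lower. The highest count came without KOp3A, beside 28% of all genes, and 3 members were lower without WTp3A, beside 5.32% of all genes.

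In WTp7 against WTp3, 23 members were higher and 1 lower. A pseudocount of 10 gave 7 and 0 of 61 measured, beside 16.3% and 1.86% of all genes. A level of at least 4 gave 5 of 12 higher, beside 37.5%. The log of the mean over cells gave 37 of 68 higher, beside 43.1%. A difference of at least 1 gave 4 and 0 of 61, beside 9.21% and 2.47%. ERCC scaling gave 15 and 0 of 59, beside 23.35% and 5.2%. On the gene-read scale, with size factors and with thinned cells, 6 were higher and 8 lower. The median was 0.012, 0.021 and -0.029, the last a reversal. Of all genes, 11.8% to 12.3% were higher and 21.3% to 22.2% lower in these settings. The number lower was 2 with no filter on low values, 4 with a pseudocount of 0.1 (large minus small 0.22) and 0 with cells weighted equally. The shares of all genes lower were 6.29%, 13.2% and 6.36% in the same order. With a set left out the number lower was 0 to 5. It was 0 without WTp7A, beside 7.34% of all genes, and 5 without WTp7B, beside 17.2%. Mrpl1 reversed to 0.17 with the log of the mean over cells. Scaling to genes in these 3 ways moved the median of all genes at day 7 to between -0.13 and -0.12, and relative to it the members stayed higher. The cause of these changes was not tested. Few reads limit the low members most, and 5 WTp3 cells had under 100000 reads on genes.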
